A study of Mus musculus with 20 samples.

Results

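A set of 9 genes that B lymphocytes are not known for was followed across the 20 libraries of this single-cell RNA-sequencing (scRNA-seq) series: Krt8, Krt18, Epcam, Cyp11a1, Wnt10a, Utf1, Gnb3, Gng13 and Wipf3, of the 31053 genes counted. They were chosen by their measured CPM and shares of positive cells in the B cells of these same libraries, so their levels in B cells and T cells are described here without a test. Each gene was summed over the B cells and, separately, over the T cells of every library and expressed as CPM, the counts per 1000000 unique molecular identifiers (UMIs) of those cells. A B cell had at least 3 UMIs of Cd79a and Cd79b together, no UMI of Cd3d, Cd3e or Cd3g and fewer than 20 UMIs of Jchain, and a T cell had at least 2 Cd3 UMIs and no Cd79 UMI.

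The study used mice in which a human cDNA is driven by a V_H promoter and the Ig_H Eµ enhancer, an element active in immature and mature B cells. The 5 Eµ-PRMT5 spleens carried the transgene Eµ-hPRMT5, the 4 Eµ-TCL1 spleens and 3 Eµ-TCL1 lymph nodes carried Eµ-hTCL1, and the 4 Eµ-PRMT5/TCL1 spleens and 4 Eµ-PRMT5/TCL1 lymph nodes carried Eµ-hPRMT5/hTCL1. All mice were of strain C57BL/6N per the labels, all were taken at early removal criteria, and no mouse without a transgene was among them. The double transgenic line came from crossing the Eµ-PRMT5 line to a homozygous Eµ-TCL1 line kept on C57BL/6J, ages are not given in the labels, and the nodes were sub-mandibular. The 20 libraries of unselected live cells came from 13 mice, of which 7 gave both a spleen and a node, so the tissues do not hold separate mice.

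The libraries held 9348094 to 72440894 UMIs, 195 to 5136 B cells and 46 to 4299 T cells, with a median of 4267 to 16712 UMIs per B cell and 2774 to 9578 per T cell. Summed B cell markers stood at 1291 to 8418 CPM in the B cells and 93.4 to 334 CPM in the T cells, and summed T cell markers at 12 to 200 CPM in the B cells and 2117 to 5462 CPM in the T cells. The lists of 8 markers each include the Cd79 and Cd3 genes of the rules, so part of this separation was fixed in advance. By these rules 2 of the B cell markers were at 0 in all T cells, and 3 of the T cell markers at 0 in all B cells. Myeloid markers summed to between 0.683 and 3106 CPM in the B cells and erythroid markers to between 0.372 and 658 CPM, and their part in the results was not tested. Eµ-PRMT5 spleen 4 stood apart: its B cells held 453 CPM of Cd79a and 429 CPM of Cd79b, against 1477 to 2929 CPM and 807 to 2250 CPM in the other libraries, and made up 19.9% of its kept cells, while 79.0% met neither rule. No pair of libraries shared more than 1.31% of the cell barcodes of the smaller one.

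Keratin 8 and keratin 18 are the type II and type I intermediate filament proteins that pair in simple epithelia, and Epcam is a cell adhesion glycoprotein of the epithelial surface. Cyp11a1 is the mitochondrial enzyme that cleaves the cholesterol side chain at the first step of steroid synthesis, Wnt10a is a secreted ligand of the Wnt pathway, and Utf1 is a chromatin-associated protein of embryonic stem cells. Gnb3 and Gng13 are a β and a γ subunit of heterotrimeric G proteins, used together in taste receptor cells, and Wipf3 is a member of the WIP family, which binds WASP proteins that drive actin branching. In epithelia, the tuft cell is a chemosensory cell that uses the taste signalling chain and is also marked by keratin 18.

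Krt8 and Krt18 lie beside each other on mouse chromosome 15 (GRCm38), Krt8 at chr15:101996698-102004482 on the minus strand and Krt18 at chr15:102028180-102032027 on the plus strand. Their start sites are 23698 bases apart and point away from each other. The 300 bases around each start (250 before and 50 after, RefSeq annotation of GRCm38.p6) are shown because these neighbours gave the highest co-expression ratio of all pairs in B cells, and capitals mark matches to TATAAA on either strand.
Krt8 promoter, chr15:102004293-102004592, minus strand: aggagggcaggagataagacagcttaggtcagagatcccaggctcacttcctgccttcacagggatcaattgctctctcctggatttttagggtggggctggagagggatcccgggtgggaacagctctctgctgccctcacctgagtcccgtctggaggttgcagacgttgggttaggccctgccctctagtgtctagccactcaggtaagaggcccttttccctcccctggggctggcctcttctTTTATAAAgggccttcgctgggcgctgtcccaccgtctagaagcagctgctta
Krt18 promoter, chr15:102027966-102028265, plus strand: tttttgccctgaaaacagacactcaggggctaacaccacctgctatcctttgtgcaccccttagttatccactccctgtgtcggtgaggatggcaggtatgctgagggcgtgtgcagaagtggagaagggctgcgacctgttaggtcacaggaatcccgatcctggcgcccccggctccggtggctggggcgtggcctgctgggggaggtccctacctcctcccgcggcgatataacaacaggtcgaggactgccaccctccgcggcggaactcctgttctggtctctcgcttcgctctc
TATAAA was found only in the Krt8 window among the 9 windows held for 7 of the genes, as 2 overlapping matches on opposite strands, while 13.6% of the 32851 RefSeq promoters of that length hold it. The octamer ATGCAAAT of immunoglobulin promoters (1.74% of promoters), the AP-1 motif TGANTCA (7.81%) and the CRE motif TGACGTCA (1.79%) were in none of the 9 windows on either strand. No window of Wnt10a or Gnb3 was read. The other genes lie apart (GRCm38), Epcam at chr17:87635979-87651129, Cyp11a1 at chr9:58006411-58027023, Wnt10a at chr1:74791516-74804179, Utf1 at chr7:139943789-139945112, Gnb3 at chr6:124834240-124840275, Gng13 at chr17:25717171-25719406 and Wipf3 at chr6:54429603-54503768.

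Krt8 ranged over the widest span in B cells. In Eµ-PRMT5 spleens 1 to 5 it was counted at 0, 50.1, 0, 0.566 and 328 CPM, in Eµ-TCL1 spleens 1 to 4 at 105, 713, 61.2 and 407 CPM, and in Eµ-PRMT5/TCL1 spleens 1 to 4 at 21.8, 389, 10.1 and 211 CPM. In the nodes it was counted at 70.4, 105 and 127 CPM in Eµ-TCL1 and at 313, 9.85, 1.93 and 37.1 CPM in Eµ-PRMT5/TCL1. The ranges of all 5 groups overlapped, and single libraries were high in each genotype. T cells held 0 to 2.74 CPM, and B cells exceeded T cells in 18 of 20 libraries. The exceptions were Eµ-PRMT5 spleens 1 and 3, where the B cells held no Krt8 UMI. A CPM summed over cells cannot tell a larger share of positive cells from more RNA per cell, so shares are given as well. Of the B cells of Eµ-TCL1 spleen 2, 80.1% had a Krt8 UMI as counted and 43.8% (Wilson 95% interval 42.5 to 45.2) after each cell was thinned to 1000 UMIs. In T cells of all libraries the thinned share was between 0 and 1.59%.

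Krt18 followed Krt8 in part. It was counted at 0.14, 21.9, 1.39, 8.78 and 37.4 CPM in the Eµ-PRMT5 spleens, at 12, 31.2, 171 and 183 CPM in the Eµ-TCL1 spleens and at 7.07, 56.8, 6.86 and 62.3 CPM in the Eµ-PRMT5/TCL1 spleens. The nodes held 13.7, 10.7 and 131 CPM in Eµ-TCL1 and 456, 6.13, 9.66 and 40.3 CPM in Eµ-PRMT5/TCL1. The ratio of the keratins was not fixed: Krt8 was the higher by far in Eµ-TCL1 spleen 2, while Krt18 was the higher in Eµ-TCL1 spleen 3 and Eµ-PRMT5/TCL1 node 1. These are 3′ tag counts, so no length correction was applied. T cells held 0 to 15.1 CPM, with the top value in Eµ-PRMT5 spleen 1, the library in which B cells held 0.14 CPM. After thinning, 0 to 14.9% of B cells and 0 to 0.219% of T cells had a Krt18 UMI.

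Epcam was the least specific to B cells of the 3 epithelial genes. The Eµ-PRMT5 spleens held 44.7, 53.5, 38.2, 31.2 and 8.01 CPM, the Eµ-TCL1 spleens 22.7, 9.69, 149 and 36.7 CPM, and the Eµ-PRMT5/TCL1 spleens 20, 8.27, 6.12 and 10.4 CPM. The Eµ-TCL1 nodes held 105, 44.8 and 64.5 CPM and the Eµ-PRMT5/TCL1 nodes 67.1, 54.2, 7.25 and 16.2 CPM. T cells held 1.95 to 26 CPM, a level at which B cells of 5 libraries lay below the T cells of the same library. Unlike Krt8, Epcam was present in Eµ-PRMT5 spleens 1 and 3. Kept cells outside the B and T rules had a higher mean than the B cells in 4 of the 5 groups, the widest gap being in the Eµ-TCL1 nodes at 188 ± 111 against 71.5 ± 30.8 CPM (SD, n = 3), and those with 20 or more Jchain UMIs reached 975 CPM in Eµ-TCL1 spleen 3. Epcam was thus not particular to the B cells as gated.

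Cyp11a1 was near absent from T cells, at 0 to 0.602 CPM. In B cells it was counted at 0, 64.1, 1.01, 4.96 and 95.9 CPM in the Eµ-PRMT5 spleens, at 76.3, 36.6, 74.6 and 279 CPM in the Eµ-TCL1 spleens and at 20.6, 85.0, 146 and 96.2 CPM in the Eµ-PRMT5/TCL1 spleens. The nodes held 116, 34.8 and 183 CPM in Eµ-TCL1 and 22.3, 19.4, 95.6 and 55.2 CPM in Eµ-PRMT5/TCL1. In B cells 17 of 20 libraries reached 10 CPM, so this enzyme was broadly present, with Eµ-PRMT5 spleens 1, 3 and 4 as the low libraries. As counted, 68.5% of the B cells of Eµ-TCL1 spleen 4 and 68.3% of those of Eµ-PRMT5/TCL1 spleen 3 had a UMI of it.

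Wnt10a was higher in B cells than in T cells (0 to 1.23 CPM) in 20 of 20 libraries. Kept cells outside the B and T rules also held it, at group means of 7.72 to 113 CPM against 8.53 to 130 CPM in B cells. In the Eµ-PRMT5/TCL1 spleens those cells had the higher mean (20.7 against 8.53 CPM), and in the other groups the B cells did. The Eµ-PRMT5 spleens held 1.12, 4.15, 2.40, 23.9 and 21.1 CPM, the Eµ-TCL1 spleens 43.7, 15.4, 141 and 292 CPM, and the Eµ-PRMT5/TCL1 spleens 14.1, 2.63, 2.69 and 14.7 CPM. The Eµ-TCL1 nodes held 192, 44.5 and 153 CPM and the Eµ-PRMT5/TCL1 nodes 21.9, 14.3, 10.6 and 1.49 CPM. In both tissues all Eµ-TCL1 libraries lay above all Eµ-PRMT5/TCL1 libraries, the closest pair being 15.4 and 14.7 CPM in spleen, and this is a description of a gene chosen with such levels in view. How many of all genes separate these groups likewise was not counted. In the kept cells outside both rules the spleen ranges overlapped, at 8.38 to 307 CPM in Eµ-TCL1 and 0.587 to 60.6 CPM in Eµ-PRMT5/TCL1. The node ranges of those cells did not overlap, at 67.6 to 175 and 2.14 to 18.3 CPM. The node values come from mice that also gave 3 of the 4 Eµ-TCL1 spleens and all 4 Eµ-PRMT5/TCL1 spleens.

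Utf1 was low in most libraries and did not mark B cells as a class. The Eµ-PRMT5 spleens held 4.90, 7.92, 9.09, 5.66 and 2.37 CPM, the Eµ-TCL1 spleens 0.564, 2.15, 121 and 20.7 CPM, and the Eµ-PRMT5/TCL1 spleens 1.74, 4.89, 5.11 and 4.03 CPM. The Eµ-TCL1 nodes held 8.89, 3.65 and 8.72 CPM and the Eµ-PRMT5/TCL1 nodes 25.2, 0.783, 2.42 and 2.23 CPM. T cells held 0.537 to 11.1 CPM and exceeded B cells in 11 of 20 libraries, so only 3 libraries, which reached 10 CPM, stood out. One B cell of Eµ-TCL1 spleen 3 held 31 Utf1 UMIs.

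Gnb3 and Gng13 were near absent from T cells. Gnb3 was counted at 0.28, 13.6, 2.65, 6.02 and 164 CPM in the Eµ-PRMT5 spleens, at 145, 69.1, 304 and 245 CPM in the Eµ-TCL1 spleens and at 62.3, 165, 111 and 245 CPM in the Eµ-PRMT5/TCL1 spleens. The nodes held 70.4, 41.1 and 291 CPM in Eµ-TCL1 and 150, 35.2, 118 and 90.3 CPM in Eµ-PRMT5/TCL1, and T cells no more than 1.23 CPM. Of the 5 Eµ-PRMT5 spleens, 4 lay below every library that carried Eµ-hTCL1, and spleen 5 lay among them. The 4 include spleen 4, whose B cells had the lowest Cd79 level of all libraries. How many of all genes lie likewise was not counted, so this does not set Gnb3 apart. Gng13 was counted at 0 to 43.3 CPM in the Eµ-PRMT5 spleens, 46.2 to 81.2 CPM in the Eµ-TCL1 spleens, 13.9 to 115 CPM in the Eµ-PRMT5/TCL1 spleens, 28.0 to 47.2 CPM in the Eµ-TCL1 nodes and 5.09 to 128 CPM in the Eµ-PRMT5/TCL1 nodes, against at most 0.345 CPM in T cells. The Gng13 ranges of the Eµ-PRMT5 and Eµ-TCL1 spleens did not overlap, by a margin of 43.3 against 46.2 CPM. How many of all genes also had no overlap was not counted, so this does not set Gng13 apart.

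Wipf3 was present in every library and in T cells as well. It was counted at 5.18 to 30.2 CPM in the Eµ-PRMT5 spleens, 12.3 to 139 CPM in the Eµ-TCL1 spleens, 11.6 to 32 CPM in the Eµ-PRMT5/TCL1 spleens, 17.8 to 220 CPM in the Eµ-TCL1 nodes and 6.72 to 70.9 CPM in the Eµ-PRMT5/TCL1 nodes. T cells held 0 to 14.6 CPM, and B cells were higher in 19 of 20 libraries. The highest library was Eµ-TCL1 node 3, where 63.1% of B cells had a UMI as counted and 16.2% after thinning.

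**Figure D1:**
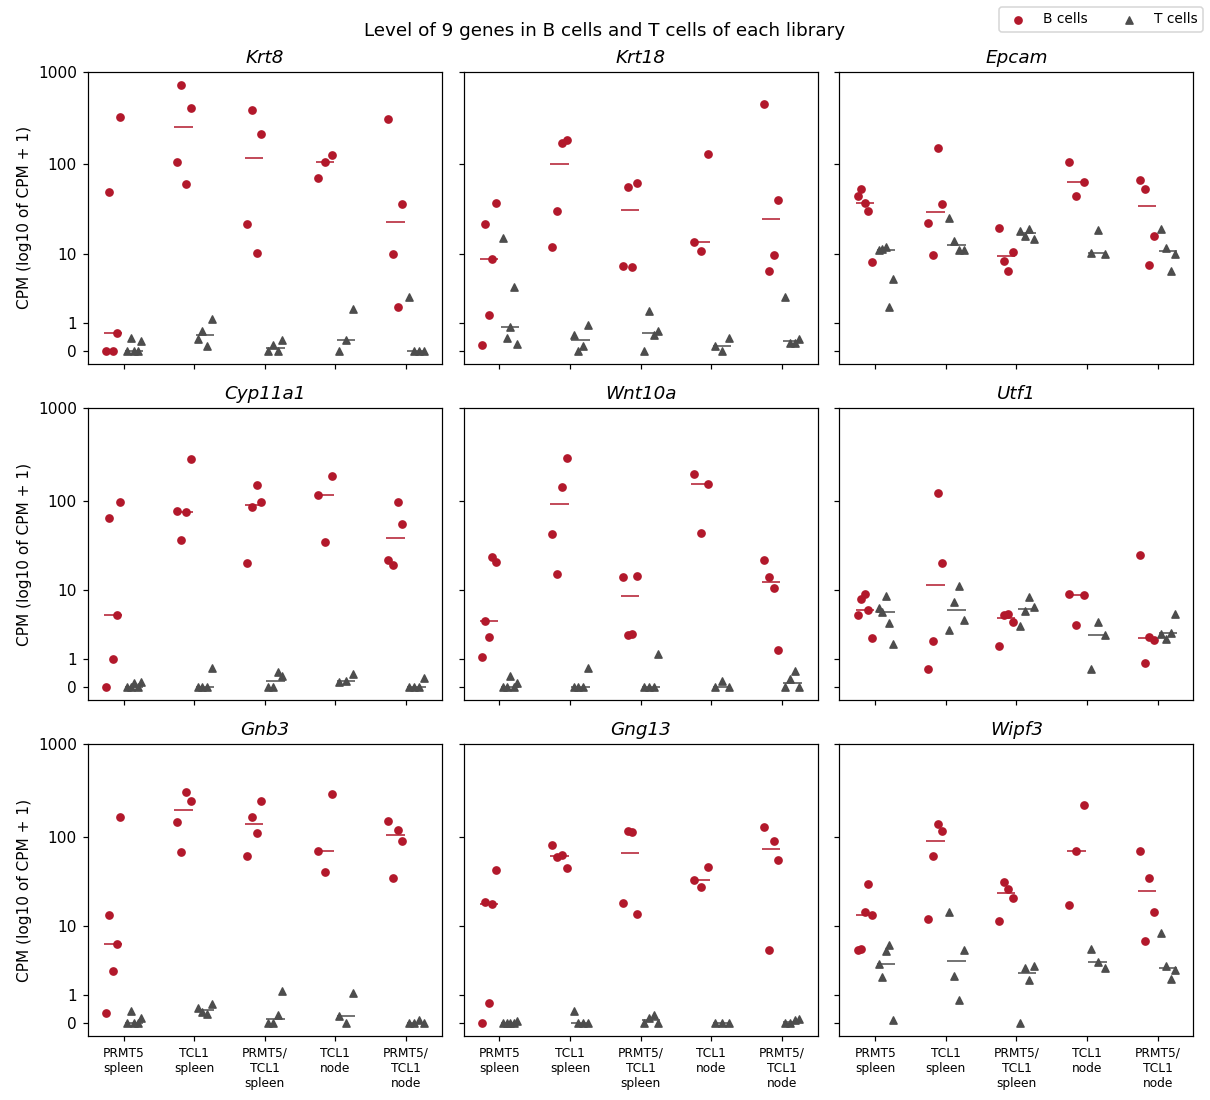
CPM (log10 of CPM + 1) of the 9 genes in B cells (red circles) and T cells (grey triangles), with 1 point per library and a line at the group median. B cell points spread widely within a group, from 0 to 328 CPM for Krt8 in the Eµ-PRMT5 spleens, while T cell points stay at or below 2.74 CPM for Krt8, Cyp11a1, Wnt10a, Gnb3 and Gng13.

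By group median the order of levels differed between genes, and most neighbouring groups overlapped. For Krt8 the medians were 256 CPM in the Eµ-TCL1 spleens, 117 CPM in the Eµ-PRMT5/TCL1 spleens, 105 CPM in the Eµ-TCL1 nodes, 23.5 CPM in the Eµ-PRMT5/TCL1 nodes and 0.566 CPM in the Eµ-PRMT5 spleens. For Epcam the Eµ-TCL1 nodes were the highest group at 64.5 CPM and the Eµ-PRMT5/TCL1 spleens the lowest at 9.32 CPM, and for Gnb3 the medians ran from 195 CPM in the Eµ-TCL1 spleens to 6.02 CPM in the Eµ-PRMT5 spleens. In all 4 pairwise comparisons of genotype the 9 genes passed the filter on low counts in the fit across all genes. Eµ-PRMT5 against Eµ-TCL1 spleens gave log2 fold changes of -3.42 ± 1.02 (SE) for Wnt10a, -2.93 ± 1.16 for Krt18 and -2.50 ± 0.70 for Wipf3, with no test because these levels chose the genes. All 9 genes had a negative value in that comparison, from -0.76 ± 0.68 for Epcam to the -3.42 of Wnt10a. Eµ-PRMT5/TCL1 against Eµ-TCL1 nodes gave -3.38 ± 0.72 for Wnt10a and 0.97 ± 0.80 for Gng13. The median over all genes tested was 0.02 in both comparisons.

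Free RNA was gauged in barcodes below 100 UMIs, which are taken to be droplets without a cell. Krt8 stood there at 4.99 to 390 CPM and was highest in Eµ-TCL1 spleen 2, also the highest library in B cells. The T cells of that library held a Krt8 UMI in 2 of 739 cells (0.271%). In Eµ-PRMT5 spleen 1 the same barcodes held 47.1 CPM of Krt8 while no B cell, T cell or other kept cell held any, and the source of those UMIs was not tested. Kept cells below the UMI minimum of both rules held 0 to 135 CPM of Krt8 and 0 to 4.05 CPM of Cyp11a1, whereas cells with both Cd79 and Cd3 UMIs, which also fall outside the B and T rules, held 0 to 358 and 0 to 292 CPM.

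Whether single cells carried several of these genes was read in counts thinned to 1000 UMIs per B cell, which left out no cell. For each pair, the share of B cells with the second gene was compared between cells with and without the first, in libraries with at least 20 cells of each gene. The median ratio was above 1 in 27 of the 36 pairs and above 1 in every library read in 7 of them. Krt8 and Krt18 gave the highest ratio, with a median of 6.21 and a range of 1.5 to 18.8 over 8 libraries. In Eµ-PRMT5/TCL1 node 1, 59.1% of the Krt8-positive B cells had Krt18 against 5.51% of the others, and in Eµ-TCL1 spleen 2 the shares were 4.53% and 3.02%. The keratins were thus found together often in some libraries, and with a ratio near the low end in the library with the most Krt8.

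Gng13 was found in a larger share of the Gnb3-positive than of the Gnb3-negative B cells in 12 of 14 libraries, with a median ratio of 2.19, although few cells held both after thinning (281 over those libraries). Gng13 was also found with Krt8 (2.76, above 1 in 11 of 12 libraries) and with Krt18 (3.26, 7 of 8). Cyp11a1 with Wnt10a (1.84) and Wnt10a with Gnb3 (1.79) exceeded 1 in 9 of 9 libraries each. Pairs below 1 included Gng13 with Wipf3 (0.562, above 1 in 3 of 10), Epcam with Gnb3 (0.697, 4 of 10) and Krt18 with Wipf3 (0.787, 1 of 8). The direction turned for Gng13 with Wipf3 when 6 or more Cd79 UMIs were asked of a B cell (1.07) or without thinning (1.08), and for Krt18 with Wipf3 at 2000 UMIs (1.07) or without thinning (1.18), so neither pair has a settled direction. Epcam gave ratios of 2.41 with Wnt10a (above 1 in 7 of 8) and of 2.61 with Krt18 (6 of 8), but the latter was 1.04 (3 of 6) with 6 or more Cd79 UMIs. Without thinning Krt8 with Krt18 gave 3.12 (14 of 14) and Krt18 with Gng13 gave 1.71 (14 of 16). Differences in depth between cells of a library were reduced by the thinning, and the cells of a library share a source. At 1000 UMIs the share of B cells with 2 or more of the 9 genes ran from 0 in Eµ-PRMT5 spleen 1 to 33.4% in Eµ-TCL1 spleen 4, with a median of 7.87%, while the share with 4 or more was at most 5.35%, in Eµ-PRMT5/TCL1 node 1. As counted, without thinning, 60.2% of the B cells of Eµ-TCL1 spleen 4 held 4 or more.

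**Figure D2:**
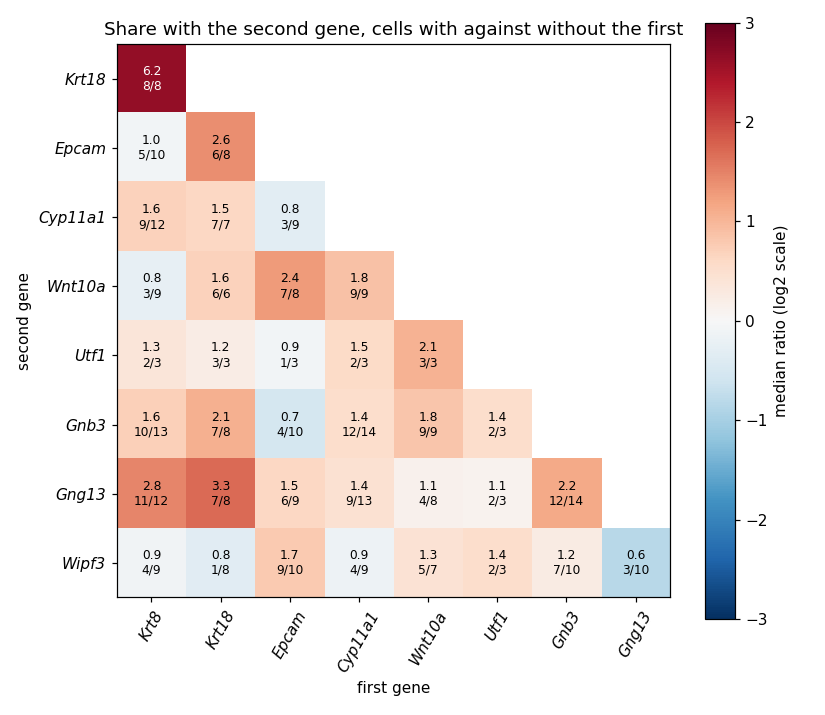
For each pair of genes, the share of B cells with the second gene among cells with the first, divided by the share among cells without it, as the median over libraries (colour, log2 scale), with the number of libraries above 1 of those read. The Krt8 and Krt18 cell is the darkest at 6.21, and Gng13 with Wipf3 is the lowest at 0.562.

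B cells with at least 5 UMIs of both keratins were then set apart, a threshold chosen after the data were seen, and what follows is a description. In all, 7 libraries from 4 mice held 5 or more such cells: Eµ-TCL1 spleens 3 and 4 (27 and 132 cells), Eµ-PRMT5/TCL1 spleens 2 and 4 (6 and 10), Eµ-TCL1 node 3 (59) and Eµ-PRMT5/TCL1 nodes 1 and 4 (47 and 10). In these cells a list of 12 tuft and taste cell genes that does not hold the 9 genes summed to 738 CPM against 85.8 CPM in the other B cells of Eµ-TCL1 spleen 3, and to 138 against 67.4 CPM in Eµ-TCL1 spleen 4. It summed to 552 against 40.4 CPM and to 593 against 40.1 CPM in Eµ-PRMT5/TCL1 spleens 2 and 4. In the nodes the sums were 990 against 63.4 CPM in Eµ-TCL1 node 3, 1081 against 56.7 CPM in Eµ-PRMT5/TCL1 node 1 and 1477 against 45.4 CPM in node 4. The list was thus higher in the cells with both keratins in 7 of 7 libraries, least so in Eµ-TCL1 spleen 4. With 3 UMIs of each keratin in place of 5, Eµ-TCL1 spleen 2 came in with 21.5 CPM against 22.7 CPM in its other B cells, so the difference was not seen there, and Eµ-PRMT5 spleen 5 came in with 50.1 against 36.3 CPM over 8 cells.

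Most of these sums came from 5 of the 12 genes. The whole list rested on 41 UMIs over 10 cells in Eµ-PRMT5/TCL1 node 4. It rested on 25 and 35 UMIs over 10 and 6 cells in Eµ-PRMT5/TCL1 spleens 4 and 2, and on 180 to 574 UMIs in the others. A CPM of 1 gene in those 3 libraries can thus rest on a few UMIs, also where it is the top of a range. Avil, an actin-binding protein of tuft cells, stood at 62.3 to 540 CPM in the cells with both keratins, Plcb2, the phospholipase of taste signalling, at 24.2 to 468 CPM and Trpm5, the cation channel of the same chain, at 12.7 to 180 CPM. Alox5, a leukotriene-forming enzyme, reached 288 CPM in Eµ-PRMT5/TCL1 node 1, and Gnat3, the taste G protein α subunit, 263 CPM in Eµ-TCL1 node 3. Pou2f3, the transcription factor that tuft cells need, was counted in 7 of 7 libraries at 1.81 to 72.0 CPM, whereas Dclk1, another tuft cell marker, was at 0 in all 7. Il25, the tuft cell cytokine, was counted in Eµ-PRMT5/TCL1 node 1 alone, as 7 UMIs. Among the 9 genes, Gnb3 stood at 409 to 4142 CPM and Gng13 at 88.3 to 1477 CPM in these cells, while Epcam ran from 0 in Eµ-PRMT5/TCL1 spleen 2 and node 4 to 341 CPM in Eµ-TCL1 node 3.

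Cells of this kind held a large part of the keratin UMIs of some nodes. They were picked by their keratin UMIs, so a large keratin share follows in part from the threshold. In Eµ-PRMT5/TCL1 node 1 they held 10.0% of the B cell UMIs and 89.5% of the Krt18, 85.2% of the Krt8, 78.2% of the Utf1, 63.4% of the Gnb3 and 55.2% of the Gng13 UMIs, but 6.67% of the Wipf3 UMIs. In Eµ-TCL1 node 3 they held 2.56% of the B cell UMIs and 60.3% of Krt18. Their Cd79 level, for which the B cell rule set a minimum, was lower than in the other B cells of these nodes: in node 1 the median was 18 against 29 UMIs, at 10213 against 11155 UMIs per cell, and 43 of the 43 with a heavy-chain call had the leading Ighv gene, which 98.0% of all called B cells of that node had. In Eµ-TCL1 node 3 the medians were 13 and 25 Cd79 UMIs at 6428 and 7357 UMIs per cell, and 59 of 59 had the leading Ighv gene, against 99.7% of all called B cells. In Eµ-TCL1 spleen 3, where the leading gene took 47.9% of all called B cells, 16 of 25 had it. The Cd79 level was not lower in most of the spleens. The median was 38 against 33 Cd79 UMIs in Eµ-TCL1 spleen 3 and 58 against 38 in Eµ-TCL1 spleen 4. It was 59 against 42 in Eµ-PRMT5/TCL1 spleen 2 and 20 against 27 in Eµ-PRMT5/TCL1 spleen 4. The 10 cells of Eµ-PRMT5/TCL1 node 4 were shallow, at a median of 2629 UMIs against 4545 in its other B cells. Salivary gland genes, of interest because the nodes are sub-mandibular, summed to 0 to 7.11 CPM in them. The 16 genes of epithelial adhesion and identity summed to 2298 against 673 CPM in the other B cells of Eµ-PRMT5/TCL1 node 1, to 2518 against 773 CPM in Eµ-TCL1 node 3 and to 1765 against 443 CPM in Eµ-PRMT5/TCL1 node 4. Without Cd24a, which B cells also make, these sums were 202 against 42.8 CPM, 362 against 21.1 CPM and 108 against 34.0 CPM. In the spleens the full list stood at 997 against 569 CPM in Eµ-TCL1 spleen 3 and 699 against 517 CPM in Eµ-TCL1 spleen 4. It stood at 694 against 520 CPM and 2680 against 1521 CPM in Eµ-PRMT5/TCL1 spleens 2 and 4. Without Cd24a the sums were 131 against 43.4 CPM and 26.6 against 15.4 CPM in Eµ-TCL1 spleens 3 and 4. They were 427 against 20.9 CPM in Eµ-PRMT5/TCL1 spleen 4 and 0 against 17.3 CPM in Eµ-PRMT5/TCL1 spleen 2. The latter was the 1 library of the 7 where the sum was lower. The gap of the full list was narrower in the spleens, but without Cd24a this did not hold for Eµ-PRMT5/TCL1 spleen 4. Whether some of these barcodes held more than 1 cell was not tested beyond the removal of the highest doublet scores.

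B cells with 10 or more Krt8 and fewer than 3 Krt18 UMIs differed from these. Their tuft and taste sums were 107, 82.0, 19.6 and 206 CPM in Eµ-TCL1 spleen 4, Eµ-PRMT5/TCL1 spleens 2 and 4 and Eµ-TCL1 node 3. Each was below that of the cells with both keratins in the same library. The other B cells of these libraries stood at 67.4, 40.4, 40.1 and 63.4 CPM. The Krt8-alone cells thus lay above the other B cells except in Eµ-PRMT5/TCL1 spleen 4, where their sum was 4 UMIs. The stress-response gene Atf3, an immediate-early factor, differed between these cells and the other B cells in some libraries. It stood at 1729 CPM against 617 CPM in the other B cells of Eµ-PRMT5 spleen 5, at 545 against 206 CPM in Eµ-TCL1 spleen 2 and at 1227 against 80.5 CPM in Eµ-PRMT5/TCL1 spleen 1, but at 79.6 against 79.4 CPM in Eµ-TCL1 node 2 and at 490 against 590 CPM in Eµ-TCL1 node 3.

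**Figure D3:**
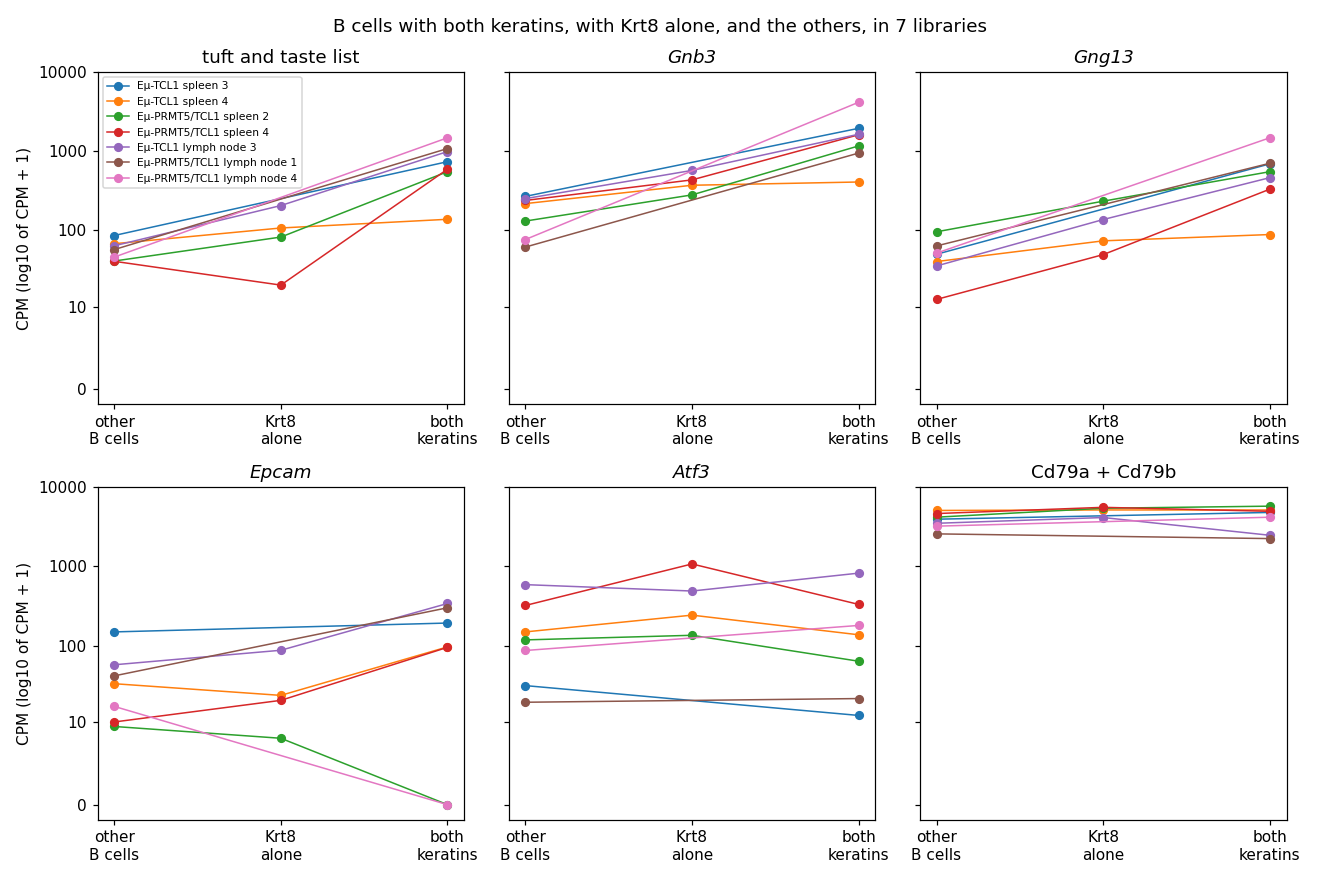
CPM (log10 of CPM + 1) in B cells with both keratins, with Krt8 alone and in the other B cells, 1 colour per library; a line without a middle point belongs to a library with fewer than 5 Krt8-alone cells. The tuft and taste list is at 40.1 to 85.8 CPM in the other B cells and at 138 to 1477 CPM in the cells with both keratins, and Gnb3 is at 409 to 4142 CPM in the latter.

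The cells of a B cell clone share a heavy-chain V gene (Ighv), which was not used to choose the 9 genes. A B cell was given an Ighv gene where it held at least 2 Ighv UMIs, of which 80% or more fell on 1 gene. The leading gene took 11.4% of the called B cells in Eµ-PRMT5 spleen 1 and 33.2% in Eµ-PRMT5 spleen 3, the libraries with no Krt8 UMI in B cells, and 47.9% to 99.7% in the other 18. In Eµ-PRMT5 spleen 4 it took 99.7%, with Krt8 at 0.566 CPM, in the library whose B cells had the lowest Cd79 level. In all 7 mice with both tissues, spleen and node had the same leading gene. Different mice also shared leading genes, such as Ighv12-3 in Eµ-PRMT5 spleen 4 and Eµ-TCL1 spleens 2 and 4. A shared leading gene therefore does not by itself mark a clone of 1 mouse.

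Within a library the genes could differ sharply between Ighv genes. In Eµ-TCL1 spleen 3, Utf1 stood at 203 CPM in the 519 cells with Ighv10-3, at 5.39 CPM in the 335 cells with Ighv1-26 and at 3.19 CPM in the 191 cells with Ighv12-3. Wipf3 (216, 36.0 and 18.4 CPM) and Epcam (227, 64.2 and 7.98 CPM) had the same order, whereas Gng13 (50.7, 131 and 3.99 CPM) and Cyp11a1 (66.5, 150 and 20.8 CPM) were highest with Ighv1-26. Krt18 (197, 208 and 35.1 CPM), Gnb3 (354, 393 and 25.5 CPM) and Wnt10a (178, 164 and 1.60 CPM) were alike in the first 2 and low in the third. The genes of this library thus did not share 1 pattern over its V genes.

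Other libraries held similar contrasts. In Eµ-PRMT5 spleen 2, the 153 cells with Ighv7-3 held no Krt8 and 90.9 CPM of Cyp11a1, and the 27 cells with Ighv4-1 held 524 and 12.2 CPM. In Eµ-PRMT5/TCL1 spleen 3, Krt8 stood at 2.19 CPM in the 1224 cells with Ighv1-9 and at 273 CPM in the 34 cells with Ighv12-3. In Eµ-PRMT5/TCL1 spleen 4, Gnb3 stood at 259 CPM with Ighv1-52 and 34.9 CPM with Ighv11-2, and Krt18 at 58.7 and 147 CPM. One contrast could be read in both tissues of 1 mouse: Epcam stood at 69.6 CPM with Ighv8-2 and 10.2 CPM with Ighv1-55 in Eµ-PRMT5/TCL1 node 2, and at 30.4 and 3.92 CPM in spleen 1 of the same mouse, so the direction held in both tissues. Only 843 of 2726 and 1303 of 4795 B cells had an Ighv call in these libraries. The B cells outside the 2 keratin-high sets held a median of 15 Ighv UMIs in each. Many cells without a call thus had Ighv UMIs spread over more than 1 gene. Of the cells with a light-chain call, 99.9% shared Igkv12-89 in each, so the light chain does not show the split that the Ighv genes show. Whether the cells with Ighv8-2 and with Ighv1-55 are separate populations was not tested.

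**Figure D4:**
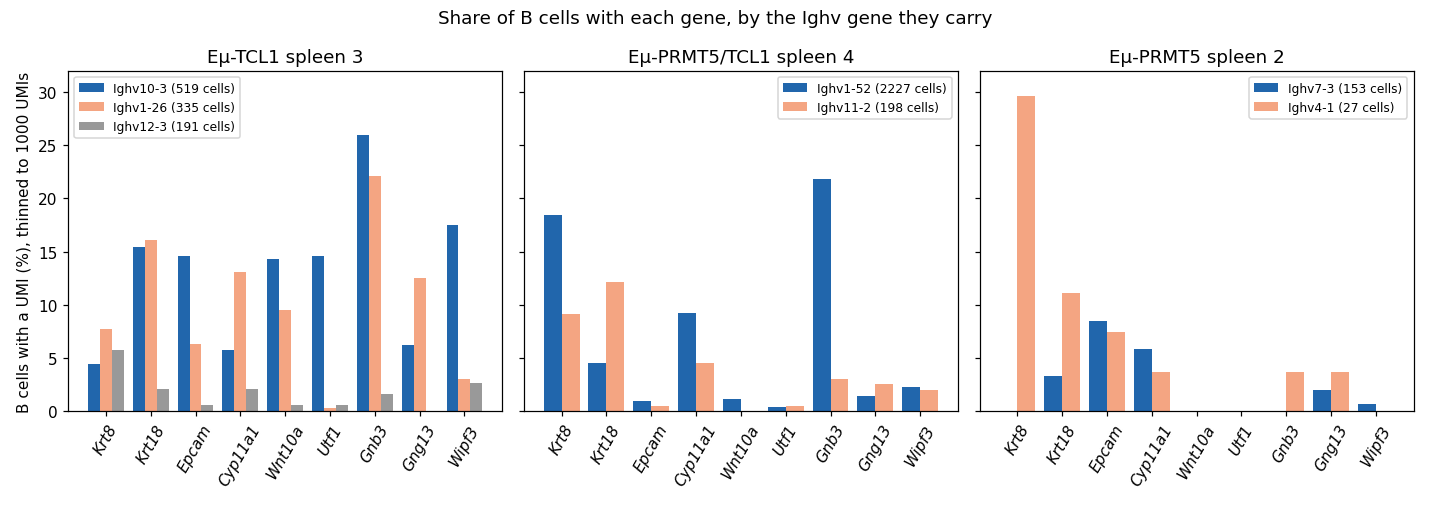
Share of B cells with a UMI of each gene after thinning to 1000 UMIs (percent, bars from 0), by Ighv gene, in 3 libraries. Utf1 is at 14.6% with Ighv10-3 and at 0.299% and 0.524% with the other genes of Eµ-TCL1 spleen 3, and Krt8 is at 0 with Ighv7-3 in Eµ-PRMT5 spleen 2.

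Whether positive cells carried the leading Ighv gene more often than negative cells was tested over mice with a two-sided exact sign-flip permutation test, for the 6 genes with enough cells in 6 or more mice, with Benjamini-Hochberg adjustment over the 6. Wipf3-positive cells had it more often by 11.3 ± 16.8 percentage points (SD, n = 6 mice), higher in 6 of 6 mice, with an exact p of 0.0312, the smallest that 6 mice allow, and an adjusted p of 0.188. The measure was near its ceiling in most libraries, with the leading gene in 99.6% of both the positive and the negative cells of Eµ-TCL1 spleen 2. The mean rested mainly on Eµ-TCL1 spleen 3 (42.1 points), without which it was 5.12 points, and on Eµ-PRMT5/TCL1 spleen 1 (19.6 points). In the latter only 1303 of 4795 B cells had an Ighv call. The difference was 1.88 ± 6.80 points for Cyp11a1 (higher in 7 of 8 mice), 1.53 ± 7.60 for Krt8 (6 of 8), 0.994 ± 15.3 for Gnb3 (8 of 9), 0.569 ± 3.87 for Gng13 (7 of 9) and -0.0884 ± 18 for Epcam (3 of 8), each with an adjusted exact permutation p of 0.961. None of the 6 passed the threshold of 0.05, and with differences this variable between mice the test does not show that the shares are alike. Krt18, Wnt10a and Utf1 had too few mice to be tested. With positive cells taken as those with 2 or more UMIs before thinning, Cyp11a1 gave 10.2 points (higher in 9 of 9 mice) with an adjusted exact permutation p of 0.0312. In that setting Wnt10a gave 8.28 points (6 of 6 mice, adjusted exact permutation p of 0.0833) and Krt18 0.495 points (3 of 7, 0.957). Without thinning, B cells with a Cyp11a1 UMI were deeper in most libraries, as at 9095 against 4976 UMIs in Eµ-TCL1 spleen 4. In Eµ-PRMT5 spleen 4 the order was reversed (15371 against 16803), and the part of depth was not tested. Without the mouse that gave Eµ-PRMT5/TCL1 spleen 1 and node 2, Gnb3 gave 5.61 points with an adjusted exact permutation p of 0.0391.

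Related genes, in 10 lists, were then read in B cells, to see how much of each gene's usual company was present. Of 17 other epithelial keratins, 2 reached 10 CPM in a library: Krt222 at 9.39 to 82.7 CPM and Krt10 at 2.37 to 20.7 CPM. Of 16 genes of epithelial adhesion and identity, 4 reached 10 CPM, led by Cd24a, a surface protein that B cells also make, and Ehf, an epithelial ETS factor, which reached 70.4 CPM in Eµ-TCL1 node 1 against at most 0.152 CPM in T cells. No salivary gland gene reached 10 CPM. The steroid list reached 10 CPM through Tspo, Fdx1 and Fdxr, which T cells also held, and no other gene of that list reached this level. Of 18 Wnt ligands, Wnt16 (40.8 CPM) and Wnt10b (26.3 CPM) reached that level, both highest in Eµ-TCL1 spleen 3. Of 23 Wnt receptors and targets 7 reached 10 CPM, among them Ctnnb1, the β-catenin gene, at 51.9 to 118 CPM. Of 13 pluripotency genes, Klf4 (151 CPM in Eµ-PRMT5 spleen 1) and Pou5f1 (18.3 CPM in Eµ-TCL1 node 3) did. The tuft and taste list, the G protein β and γ subunits and the WASP and WIP family had 5, 10 and 9 genes at 10 CPM, among them Gng5 (149 to 766 CPM) and Arpc2 (521 to 1071 CPM), which T cells held at up to 788 and 1450 CPM.

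These related genes were compared between genotypes with edgeR's quasi-likelihood test on counts summed over the B cells of each library, with Benjamini-Hochberg adjustment over all genes tested. In Eµ-PRMT5 against Eµ-TCL1 spleens, 0 of 53 related genes tested were called at an adjusted p under 0.05, where 0.0260% of all genes were called (0.0173% higher and 0.00866% lower), and 7 had an unadjusted p under 0.05, as did 1979 of all 11541 genes. DESeq2 called 3 of the related genes and 679 of all genes, a like share. The lowest adjusted p was that of Muc1, an epithelial mucin, with a log2 fold change of 4.6 ± 0.82 (SE) and an edgeR adjusted p of 0.0863. Muc1 stood at a median of 0.282 CPM in B cells and 6.94 CPM in T cells, and the part of other cells' RNA in its difference was not tested. When the double transgenic spleens were set against the Eµ-TCL1 spleens, 0 of 53 were called (0.00866% of all genes), with 1 at an unadjusted p under 0.05 (524 of all genes) and 0 by DESeq2 (21 of all genes). Against the Eµ-PRMT5 spleens, 0 of 53 were called (0% of all genes), with 3 at an unadjusted p under 0.05 (1012 of all genes) and 1 by DESeq2 (113 of all genes), and in the nodes 0 of 51 were called (0% of all genes), with 4 (737 of all 10892 genes) and 0 (63 of all genes). The first 3 comparisons share libraries. Without Eµ-PRMT5 spleen 5 the first comparison called 1 related gene and 68 of all genes, and without Eµ-PRMT5 spleen 4 it called 303 of all genes, against 3 with all libraries. The tuft and taste list had a median log2 fold change of -1.98 over its 7 tested genes in Eµ-PRMT5 against Eµ-TCL1 spleens, and of -0.57, 1.30 and 0.43 in the other comparisons in the order given, against 0.02, 0.00, -0.04 and 0.02 over all genes. The Wnt ligands had medians of -1.31, -2.51, -1.20 and -1.03 over 2, 2, 2 and 3 tested genes, and the keratins of -0.98, -0.46, 0.53 and 0.71 over 3, 3, 3 and 2.

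Over the 20 libraries, the genes whose B cell levels were most like each of the 9 were named by Pearson's r of log2(CPM + 1) among 10817 genes that reached 5 CPM in a library. This is a description, since libraries of 1 mouse are not independent. Stk3 and Cep89 were most like Krt8 (r = 0.88 each), followed by Map3k12 (0.85), and Kank3 (0.88), Cbx6 (0.85) and Fxyd6 (0.83) were most like Krt18. Gnb3 was the gene most like Cyp11a1 (0.89), followed by Trim2 (0.88) and Oosp1 (0.86), so another of the 9 genes ranked first for it. Gm21188 (0.91), Trim2 (0.90) and F11r (0.89) were most like Gnb3, and Pstpip2, Lrrc25 (0.83 each) and Prrg2 (0.82) most like Gng13. Dmwd (0.89), Brdt (0.85) and Neurl1a (0.84) were most like Wnt10a, Pde2a (0.82) and Slc25a42 (0.80) among those most like Utf1, Cadm4 (0.90), Spire1 (0.86) and Soga1 (0.83) most like Wipf3, and Brd7 (0.82), Ei24 (0.76) and Pigf (0.74) most like Epcam. Krt8 and Krt18 had r = 0.77, and Epcam had r = -0.28 with Gng13, -0.20 with Cyp11a1 and -0.18 with Gnb3.

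Neighbours on the chromosome gave a further reading. Beside the keratins, Krt79 and Krt78 were at or near 0 in B cells (at most 0.0476 CPM), while Eif4b, a translation factor, stood at 191 to 464 CPM. Wnt6, which lies 6194 bases from Wnt10a, reached 9.57 CPM in Eµ-TCL1 node 1 (r = 0.79 with Wnt10a), and Kndc1, 2252 bases from Utf1, reached 18.9 CPM in Eµ-TCL1 spleen 3 (r = 0.69 with Utf1). Ccdc33, 1654 bases from Cyp11a1, stayed at or below 0.0708 CPM, so some adjoining genes were counted beside the 9 and others were not. Gm17322 overlaps Cyp11a1 (r = 0.71), Gm36026 overlaps Krt8, Chtf18 overlaps Gng13, and Gm44026 and Scrn1 overlap Wipf3, and reads in such overlaps may be split between genes.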

How the data were processed

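Unselected live cells of spleen and sub-mandibular lymph node were profiled by 10x 3′ v2 single-cell RNA sequencing. The authors deposited unfiltered UMI counts per gene and barcode (GRCm38). The submitters' processing notes name Cell Ranger 2.0.1 and Seurat 2.2.1, whereas the matrix headers give 3.1.0. From these counts, a barcode was called a cell above 1/10 of the 99th percentile of UMIs of the 3000 richest barcodes, if it held 200 or more genes and no more than 10% of its UMIs were mitochondrial. This gave 87773 cells, and 84231 remained (30890 B and 27889 T cells) after the highest Scrublet scores (scanpy 1.11.5) were removed at 0.8% per 1000 cells. Shares were read after thinning to 1000 UMIs. Wilson intervals (95%) and floors cover counting error only. Counts summed over the B cells of each library were fitted with edgeR 4.0.16 (quasi-likelihood, Benjamini-Hochberg threshold 0.05), with DESeq2 1.42.0 as an alternative. On simulated counts the fit recovered 92% to 95% of genes changed 8-fold and 7% to 16% changed 2-fold.

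The members and lists were chosen with earlier results of these data known. Besides the 9 genes, the text names the 3 genes most like each of them (1 is not reported here), related genes called or otherwise up to 3 per list with the highest B cell level, and 2 annotated neighbours on each side. Genes described in cells with both keratins, and Muc1, were named after their values were seen. Replicates are separate mice within a tissue. Replicate numbers do not pair mice across genotypes (correlations of same-numbered libraries -0.113 to 0.234).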

Additional observations from a re-analysis of the deposited data

Results flagged for a closer look

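In 7 of the 36 sets of 4 or 5 libraries examined (9 genes in 4 groups), 1 library lay far from the others of its group in B cell CPM, a rule that marks about 1 in 20 sets of unselected values by chance. The genes were chosen by these same levels, so the count is a description and is not read against that rate. In the Eµ-PRMT5 spleens this was spleen 5, with Krt8 at 328 CPM against 0 to 50.1 CPM and Gnb3 at 164 CPM against 0.280 to 13.6 CPM. In the Eµ-TCL1 spleens, spleen 4 held 279 CPM of Cyp11a1 (the others 36.6 to 76.3 CPM) and spleen 3 held 121 CPM of Utf1 (the others 0.564 to 20.7 CPM). In the Eµ-PRMT5/TCL1 nodes, node 1 held Krt8 at 313 CPM against 1.93 to 37.1 CPM, Krt18 at 456 CPM against 6.13 to 40.3 CPM, and Utf1 at 25.2 CPM against 0.783 to 2.42 CPM.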

How the results depend on the processing

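Over the alternatives computed, 608 values were counted as unchanged, 17 reversed, 11 moved and 2 passed the threshold only under the alternative. For tested differences, unchanged meant the same sign and side of the threshold. For counts it meant a like size, and for other values a shift below the SD between libraries or mice. Many of the 608 are median levels with 1 library left out, which could hardly shift by that SD, so the count says little about robustness. Between Eµ-PRMT5 and Eµ-TCL1 spleens DESeq2 called 3 related genes in place of 0, and 1 in place of 0 for the double transgenic against the Eµ-PRMT5 spleens. Leaving out 1 library gave 0 to 1. Over all genes DESeq2 called 679, 21, 113 and 63 in the 4 comparisons, against 3, 1, 0 and 0 by edgeR. Leaving out Eµ-PRMT5 spleen 4 gave 303 in the first comparison and Eµ-PRMT5 spleen 5 gave 68, and leaving out a node gave up to 7 in the nodes. With the replicate number as a block, 0 related genes were called in all 4 comparisons and 11 of all genes in the first, and since the numbers belong to different mice this is no paired result.

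The difference in leading Ighv share turned negative for Krt8 (-5.52 points, 2 or more UMIs, not thinned) and positive for Epcam (2.48 with 2 or more UMIs, 1.49 with no doublet removal, 0.893 with 6 or more Cd79 UMIs, and -4.53 to 4.33 leaving out 1 mouse with all its libraries). For Gnb3 it was -0.359 with 6 or more Cd79 UMIs and -1.21 to 5.61 leaving out 1 mouse. For Gng13 it was -2.17 at 2000 UMIs, -1.77 with Igkv, -3.79 with no doublet removal, -1.28 with 6 or more Cd79 UMIs and -0.160 to 1.42 leaving out 1 mouse. Wipf3 gave 6.83 with no doublet removal and 5.13 with Igkv (higher in 4 of 6 mice each). It gave 6.55 with 6 or more Cd79 UMIs (6 of 7), 7.62 at 2000 UMIs (7 of 9) and 11.9 with 2 or more UMIs (6 of 6). Cyp11a1 gave 10.2 with 2 or more UMIs, not thinned, and passed the threshold. The cause was not tested. Median positive shares without thinning were 8.25% for Krt18, 13.3% for Epcam, 33.5% for Cyp11a1 (12.2% at 2000 UMIs), 3.09% for Utf1, 31.6% for Gnb3, 21.3% for Gng13 and 13% for Wipf3. A Krt8 UMI was found in 0 of 1297 B cells of Eµ-PRMT5 spleen 1, which allows a share of cells with a detected UMI of up to 0.231% and gives no limit on the share of cells that express the gene.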
